A study of Mus musculus with 7 samples.

Results

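The enzymes of the mitochondrial β-oxidation spiral were examined in duodena of control mice and of mice labelled as intestinal PPARα knock-outs (I-KO). The members were the 9 genes Acadvl, Acadl, Acadm, Acads, Hadha, Hadhb, Hadh, Echs1 and Acaa2, found by their symbols in a table of 14795 genes. They are the acyl-CoA dehydrogenases by chain length, both subunits of the trifunctional protein, and the short-chain hydratase, dehydrogenase and thiolase. All 9 had a value above 1 in every library and could be tested.

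RNA came from duodena of 3 Ppara lox/lox control mice and 4 Ppara I-KO mice, all homozygous for the floxed allele. The labels give the strain as C57BL/6 and the methods as predominantly C57BL6/J. The I-KO mice also carried Villin-Cre, a transgene driven by a promoter of the intestinal epithelium. The methods describe males on high-fat diet (HFD) and lox/lox littermates as controls, whereas the labels give no diet or age. By the labels, all mice went 6 h without food and were then fed for 6 h before they were killed, whereas the general methods describe a fast before killing unless stated otherwise. Whole duodenum also holds muscle, stroma and immune cells without Cre, in which Ppara stays intact. A library had between 20741385 and 25885445 reads on the genes of the table, and the members had between 1085 and 20053 reads in a library.

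In the β-oxidation spiral, a fatty acyl-CoA is shortened step by step to acetyl-CoA. An acyl-CoA dehydrogenase forms a double bond, a hydratase adds water, a hydroxyacyl-CoA dehydrogenase oxidises the product and a thiolase cleaves it. Long chains pass through enzymes bound to the inner mitochondrial membrane, and shorter chains through soluble enzymes of the matrix. PPARα is a nuclear receptor that binds fatty acids and, with its partner RXR, activates genes of fatty acid oxidation in liver, heart and intestine.

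Of the 9 spiral genes, 7 had a lower and 2 a higher level in Ppara I-KO duodena, and 49.4% of all genes tested had a lower level. The genes with the largest differences were Hadha and Hadhb, which encode the trifunctional protein, and Acadvl, which encodes the very long-chain acyl-CoA dehydrogenase. Their means in I-KO were 74.3%, 76.9% and 74.6% of those in lox/lox. Acads, for the shortest chains, was at 81.4%. Hadh and Echs1, which encode the soluble dehydrogenase and hydratase for short chains, were not lower. Differences between the genotypes were tested with limma on log2(normalised read count + 1) of 13399 genes, with Benjamini-Hochberg adjustment. By this test 0 members passed an adjusted p of 0.05, against 0.0299% of all genes tested. At an unadjusted p of 0.05 by limma, 4 members were lower in I-KO, compared with 2.42% of all genes, and 0 were higher, compared with 2.32%. In 5 members every I-KO library was below every lox/lox library, against 3.28% of all genes, and in 0 members every I-KO library was above, against 2.91%. The median log2 fold change was -0.23 for the members (-0.13 without I-KO replicate 1) and 0.0017 for all genes tested.

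**Figure D1:**
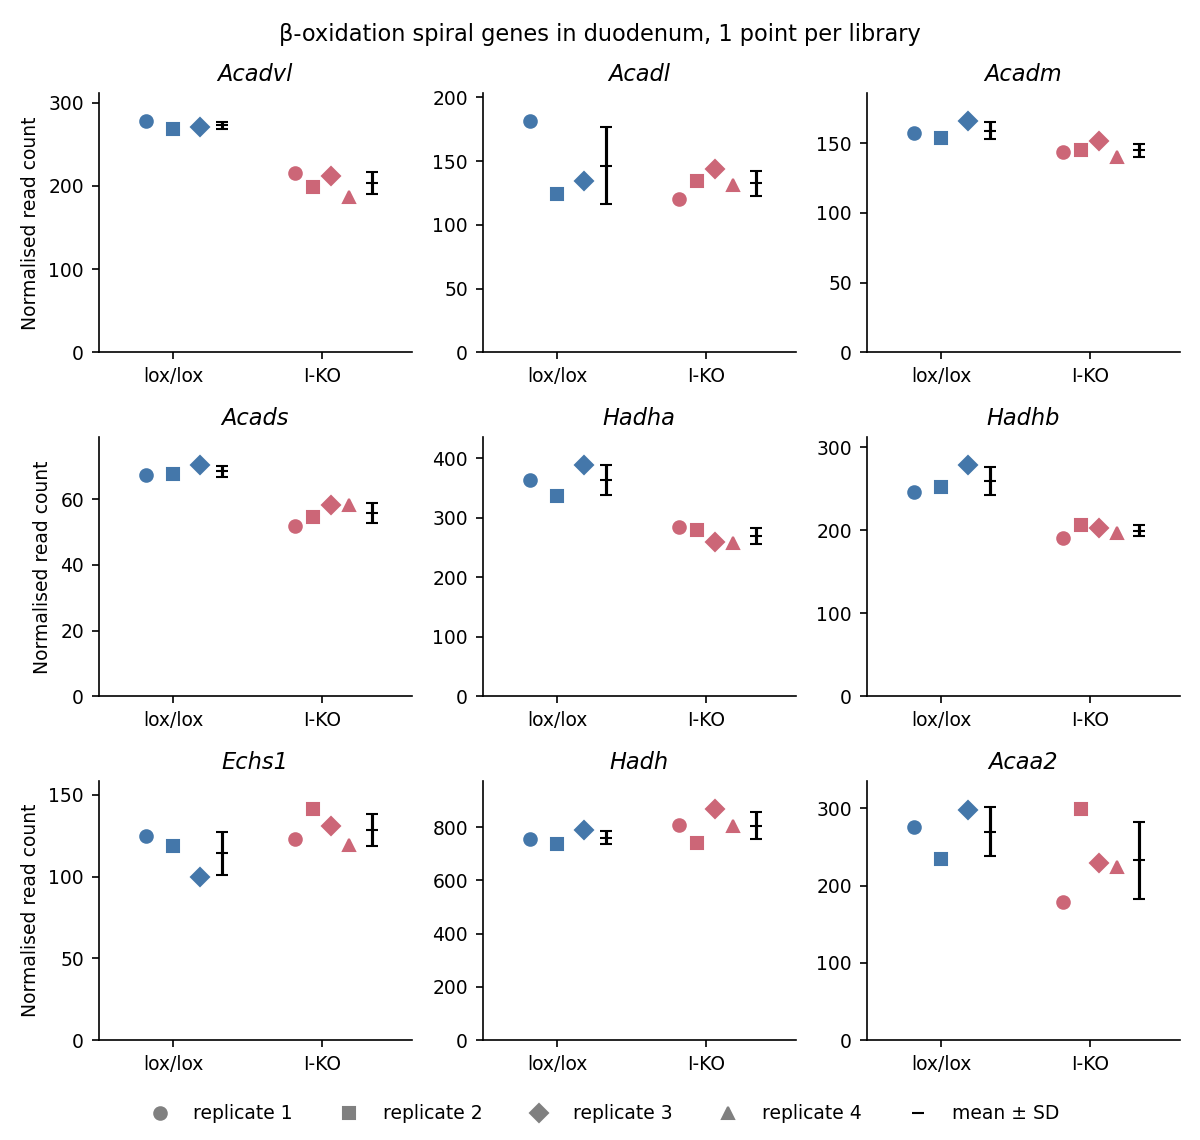
Normalised read count (vertical axes, starting at 0) of the 9 spiral genes in each duodenal library, with 3 lox/lox libraries in blue and 4 I-KO libraries in red. Marker shapes give the replicate number, and bars the mean ± SD. Acadvl, Acadm, Acads, Hadha and Hadhb show no overlap between the groups, whereas Acadl, Acaa2, Hadh and Echs1 do.

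Ppara itself had normalised read counts of 53.4, 49.3 and 63.2 in lox/lox replicates 1 to 3 and of 33.05, 40.6, 47.5 and 69.9 in I-KO replicates 1 to 4. The library labelled I-KO replicate 4 was thus above every lox/lox library. Such a total also counts exons outside the deletion and cells lacking Cre, and it is no check of the deletion. The same library had the lowest value of all 7 for Acadvl, Acadm and Hadha, and for no other member. Its Acads of 58.24 was the highest of the I-KO libraries, and its Hadhb of 196.76 was above the 191.24 of I-KO replicate 1. Without I-KO replicate 4 the same 4 members were lower at an unadjusted p of 0.05 by limma, when 3.8% of all genes were. The log2 fold change of Ppara, -0.25 with all libraries (adjusted p = 0.954 from limma), was -0.45 without that library (adjusted p = 0.70, unadjusted p = 0.0152, both from limma). It was -0.099 without I-KO replicate 1 (unadjusted p = 0.628 from limma) and -0.16 without lox/lox replicate 3 (unadjusted p = 0.558 from limma).

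The acyl-CoA dehydrogenases carry out the entry step, and each prefers a range of chain lengths. Acadvl, on chromosome 11 of GRCm38 from 70010183 to 70015411, had normalised read counts of 278, 269 and 271 in lox/lox replicates 1 to 3. The I-KO replicates 1 to 4 had 215, 199, 212 and 187. The groups were clearly apart, since the highest I-KO library lay well under the lowest lox/lox library. The mean was 273 ± 4.58 (SD, n = 3) in lox/lox and 203 ± 13.1 (SD, n = 4) in I-KO. Its log2 fold change was -0.42 (standard error 0.082, 95% confidence interval -0.61 to -0.24, adjusted p = 0.399 from limma). By unadjusted p from limma (0.000596), Acadvl ranked 20 among all 13399 genes. An exact two-sided permutation test gave p = 0.0286, the smallest that 3 against 4 libraries allow.

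Acadl, on chromosome 1 from 66830839 to 66863277, encodes the long-chain dehydrogenase. Its normalised read counts were 181, 124 and 134 in lox/lox replicates 1 to 3, and 121, 135, 144 and 131 in I-KO replicates 1 to 4. Only lox/lox replicate 1 stood above the I-KO range, and the other libraries of both groups were mixed. The log2 fold change was -0.13 (standard error 0.13, 95% confidence interval -0.43 to 0.17, adjusted p = 0.954 from limma). Means were 147 ± 30.4 (SD, n = 3) in lox/lox and 133 ± 9.48 (SD, n = 4) in I-KO. Their difference was smaller than the SD of lox/lox but larger than that of I-KO. The fold change rested on lox/lox replicate 1, and was 0.034 without it and -0.24 without lox/lox replicate 2.

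Acadm, on chromosome 3 from 153922357 to 153944632, encodes the medium-chain dehydrogenase. It had normalised read counts of 157, 154 and 166 in lox/lox and of 143, 145, 151 and 140.0 in I-KO libraries. All I-KO values lay just below the lox/lox values, and the means of 159 ± 6.19 (SD, n = 3) and 145 ± 4.74 (SD, n = 4) were close. The log2 fold change was -0.13 (standard error 0.076, 95% confidence interval -0.30 to 0.040, adjusted p = 0.954 from limma), so the interval included 0 despite the separation of the groups.

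Acads, on chromosome 5 from 115110299 to 115119346, encodes the short-chain dehydrogenase. It had normalised read counts of 67.3, 67.8 and 70.4 in lox/lox and of 52.0, 54.5, 58.2 and 58.2 in I-KO libraries. The lox/lox values lay close together, and all 4 I-KO values were under them. The log2 fold change was -0.29 (standard error 0.079, 95% confidence interval -0.47 to -0.11, adjusted p = 0.791 from limma), with p = 0.0286 in the exact two-sided permutation test. In order of chain length, from very long to short, the log2 fold changes of the dehydrogenases were thus -0.42, -0.13, -0.13 and -0.29. The ratio of Acadvl to Acadm within a library was 1.77, 1.75 and 1.64 in lox/lox and 1.503, 1.37, 1.40 and 1.33 in I-KO libraries. This ratio differed by -0.29 on the log2 scale (exact two-sided permutation test, p = 0.0286, and 0.0762 when adjusted over 8 pairs of members compared). The ratio of Acadm to Acads differed by 0.17 (exact two-sided permutation test, p = 0.0571, adjusted p = 0.114). For Acadvl against Acadl the difference was -0.30 (exact two-sided permutation test, p = 0.143, adjusted p = 0.229). Acadl against Acadm differed by 0.0033 (exact two-sided permutation test, p = 1, adjusted p = 1).

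The trifunctional protein works on long chains at the inner membrane. Hadha encodes its α subunit, with the hydratase and dehydrogenase activities, and Hadhb its β subunit, the thiolase. Both genes lie head to head on chromosome 5 of GRCm38, Hadha on the minus strand from 30118304 to 30155162 and Hadhb on the plus strand from 30155248 to 30184593. In RefSeq their start sites are 273 bases apart, so the windows from 250 bases before to 50 bases after each start share 228 bases, from 30155003 to 30155230. Both windows are shown because they are the same stretch of DNA read in opposite directions. Capitals mark the shared part, 5′ to 3′ on the strand of each gene (RefSeq, GRCm38.p6, chr5:30154931-30155230 for Hadha and chr5:30155003-30155302 for Hadhb).
Hadha: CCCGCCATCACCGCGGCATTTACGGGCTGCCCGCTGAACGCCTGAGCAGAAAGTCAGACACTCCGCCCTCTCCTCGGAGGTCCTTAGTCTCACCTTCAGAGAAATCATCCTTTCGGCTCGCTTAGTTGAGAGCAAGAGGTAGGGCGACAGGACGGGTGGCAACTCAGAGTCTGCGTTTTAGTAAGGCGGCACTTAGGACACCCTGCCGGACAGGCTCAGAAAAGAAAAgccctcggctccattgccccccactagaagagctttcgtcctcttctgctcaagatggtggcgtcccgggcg
Hadhb: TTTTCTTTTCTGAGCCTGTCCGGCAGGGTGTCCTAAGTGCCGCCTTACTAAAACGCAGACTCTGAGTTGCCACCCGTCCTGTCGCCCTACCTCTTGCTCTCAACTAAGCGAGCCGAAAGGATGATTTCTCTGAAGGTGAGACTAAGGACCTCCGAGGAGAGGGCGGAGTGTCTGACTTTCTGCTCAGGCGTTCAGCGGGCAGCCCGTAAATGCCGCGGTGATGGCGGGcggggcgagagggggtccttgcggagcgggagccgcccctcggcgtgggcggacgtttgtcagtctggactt
Of 27025 genes with such a window, 11.9% overlapped a window of another gene on the opposite strand. Among the 8 members whose window was examined, only these 2 did.

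Hadha had normalised read counts of 364, 337 and 389 in lox/lox replicates 1 to 3, and of 284, 279, 259 and 257 in I-KO replicates 1 to 4. Every I-KO library was well below the lox/lox range. The mean was 363 ± 25.7 (SD, n = 3) in lox/lox and 269.9 ± 13.7 (SD, n = 4) in I-KO, with a log2 fold change of -0.43 (standard error 0.085, 95% confidence interval -0.62 to -0.23, adjusted p = 0.447 from limma). Hadhb had 247, 252 and 279 in lox/lox and 191, 207, 202 and 197 in I-KO libraries. These groups did not overlap either. The mean of Hadhb was 259 ± 17.1 (SD, n = 3) in lox/lox and 199 ± 6.64 (SD, n = 4) in I-KO, with a log2 fold change of -0.38 (standard error 0.080, 95% confidence interval -0.56 to -0.19, adjusted p = 0.566 from limma). Each gave p = 0.0286 in the exact two-sided permutation test, and they ranked 23 and 28 among 13399 genes by p from limma.

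Because the subunits are assembled together, their ratio was also examined. Hadha to Hadhb was 1.48, 1.34 and 1.40 in lox/lox and 1.48, 1.35, 1.28 and 1.31 in I-KO libraries. The ranges of the groups overlapped, and the log2 ratio differed by -0.050, less than it varied among mice of a group (exact two-sided permutation test, p = 0.486, adjusted p = 0.555). Over the 7 libraries Hadha and Hadhb had a correlation of 0.94, and of 0.41 once the group means were removed. Members share libraries and the genotype difference, so these values are a description.

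**Figure D2:**
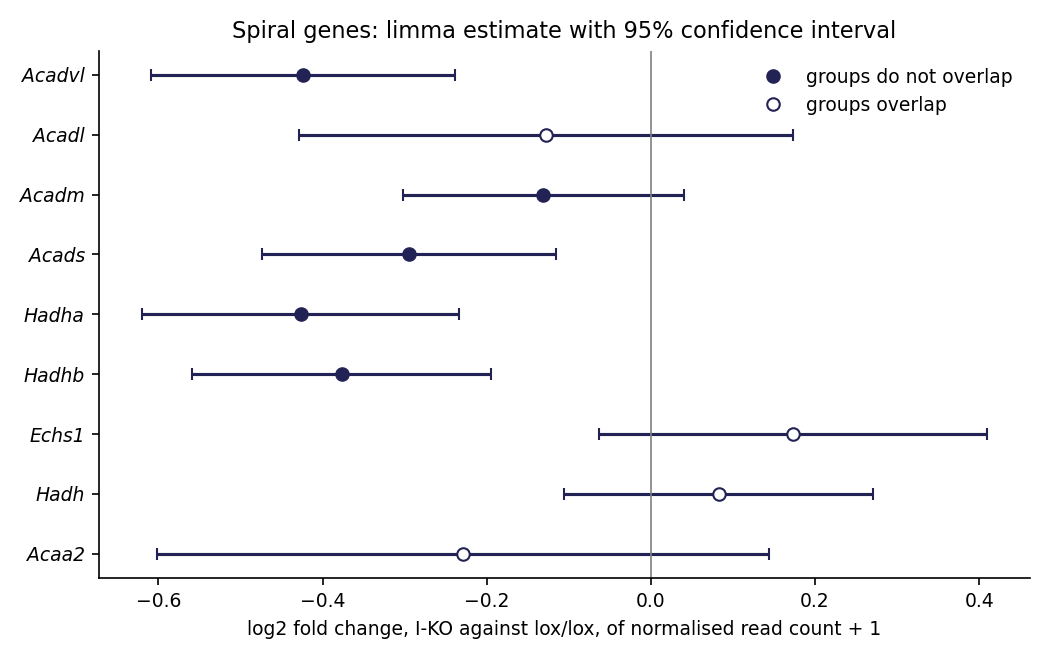
Log2 fold change of the normalised read count + 1 between I-KO and lox/lox (horizontal axis) for each spiral gene, with the limma estimate as a point and its 95% confidence interval as a bar. The intervals of Acadvl, Acads, Hadha and Hadhb exclude 0, and those of Acadl, Acadm, Echs1, Hadh and Acaa2 include it. Filled points mark genes without overlap between 3 lox/lox and 4 I-KO libraries.

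The soluble enzymes handle the shorter chains that leave the trifunctional protein. Hadh, on chromosome 3 from 131233419 to 131272101, encodes the short-chain 3-hydroxyacyl-CoA dehydrogenase. It had normalised read counts of 756, 738 and 788 in lox/lox and of 809, 742, 869 and 806 in I-KO libraries, of which 3 exceeded the whole lox/lox range. A log2 fold change of 0.082 (standard error 0.083, 95% confidence interval -0.11 to 0.27, adjusted p = 0.954 from limma) was within the spread between mice, and was 0.046 without I-KO replicate 3.

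Echs1, on chromosome 7 from 140105710 to 140116476, encodes the short-chain enoyl-CoA hydratase, which also serves valine breakdown. It had normalised read counts of 125, 119 and 99.5 in lox/lox and of 123, 141, 131 and 119.6 in I-KO libraries. The groups overlapped, and lox/lox replicate 3 was the lowest. The log2 fold change was 0.17 (standard error 0.10, 95% confidence interval -0.063 to 0.41, adjusted p = 0.954 from limma). It was 0.078 without lox/lox replicate 3.

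Acaa2, on chromosome 18 from 74779197 to 74806208, encodes the thiolase for medium chains and had the widest confidence interval of the members. Its normalised read counts were 276, 235 and 298 in lox/lox and 178, 299, 229 and 224 in I-KO libraries. I-KO replicate 2 had the highest value of all, and the other 3 I-KO libraries were below the lox/lox range. The log2 fold change was -0.23 (standard error 0.16, 95% confidence interval -0.60 to 0.14, adjusted p = 0.954 from limma). Without I-KO replicate 2 it was -0.36, and Acaa2 was then among the members at an unadjusted p below 0.05 by limma. It was -0.11 without I-KO replicate 1 (unadjusted p = 0.459 from limma) and -0.027 with sample quality weights (unadjusted p = 0.864 from limma).

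The membrane-bound and soluble enzymes of the same step were then compared within each library. The ratio of Hadha to Hadh was 0.482, 0.457 and 0.493 in lox/lox and 0.351, 0.377, 0.298 and 0.319 in I-KO libraries. No I-KO library reached the lox/lox range. The difference was -0.51 on the log2 scale (exact two-sided permutation test, p = 0.0286, adjusted p = 0.0762). The ratio of Hadha to Echs1 was 2.92, 2.84 and 3.91 in lox/lox and 2.31, 1.98, 1.98 and 2.15 in I-KO libraries, also without overlap. It differed by -0.60 (exact two-sided permutation test, p = 0.0286, adjusted p = 0.0762). For the thiolases Hadhb and Acaa2 the difference of -0.15 was within the spread (exact two-sided permutation test, p = 0.314, adjusted p = 0.419). None of the 8 pairs passed 0.05 after adjustment. The pairs were picked from 36 possible ones, and the adjustment does not cover that choice. Their ratios reuse the values of the single genes and are no separate evidence. With 3 against 4 libraries, 0.0286 is the smallest p of a single pair.

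**Figure D3:**
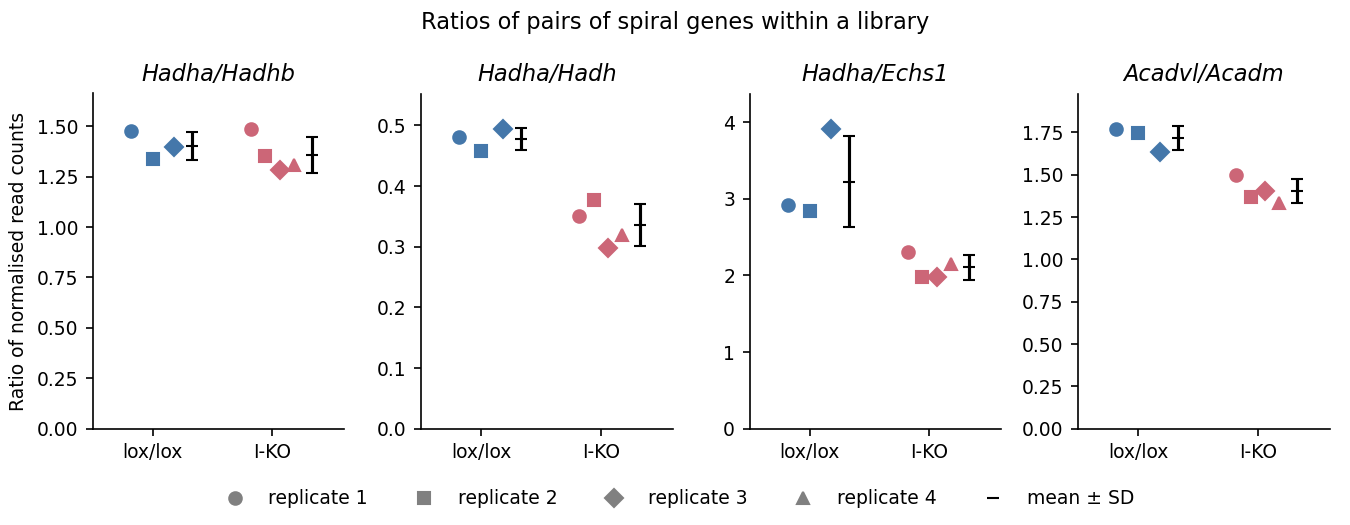
Ratio of the normalised read counts of 2 spiral genes within each library (vertical axes, starting at 0), for 3 lox/lox libraries in blue and 4 I-KO libraries in red. Marker shapes give the replicate number, and bars the mean ± SD. Hadha to Hadhb overlapped between the groups, whereas Hadha to Hadh, Hadha to Echs1 and Acadvl to Acadm were lower in all I-KO libraries.

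Promoter windows were searched for AGGTCA, the core motif of many nuclear receptor binding sites, on both strands. Of the 8 members whose RefSeq window was examined, Acadvl, Acadm and Echs1 held it, compared with 16.3% of 32851 windows. A direct repeat of AGGTCA with a spacer of 1 base, the pattern of sites of PPAR with RXR, was in 0 of the 8 and in 0.0396% of all windows. Only exact matches within these windows were searched. So few windows hold one that its absence from 8 cannot tell whether the members have such sites. Acadvl and Echs1 are shown because the motif starts at nearly the same place, at -87 and -83 from the start site, in a gene that was lower in I-KO and in a gene that was not. Capitals mark AGGTCA, 5′ to 3′ on the strand of the gene (RefSeq, GRCm38.p6, minus strand, chr11:70015379-70015678 for Acadvl and chr7:140116372-140116671 for Echs1).
Acadvl: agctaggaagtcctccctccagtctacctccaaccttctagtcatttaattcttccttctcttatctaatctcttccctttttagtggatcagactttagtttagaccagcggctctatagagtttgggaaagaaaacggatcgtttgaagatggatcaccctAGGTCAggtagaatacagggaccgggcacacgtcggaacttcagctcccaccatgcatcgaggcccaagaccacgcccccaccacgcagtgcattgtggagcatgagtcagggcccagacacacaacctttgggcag
Echs1: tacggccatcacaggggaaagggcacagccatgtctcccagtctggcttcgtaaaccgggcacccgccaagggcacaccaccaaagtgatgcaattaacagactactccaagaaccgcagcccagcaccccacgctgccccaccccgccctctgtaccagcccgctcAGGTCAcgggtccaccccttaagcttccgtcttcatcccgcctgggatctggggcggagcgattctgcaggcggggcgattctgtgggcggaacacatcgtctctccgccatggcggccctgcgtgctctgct
In Acadm the motif lay on the opposite strand at -249. A match is a description of these letters only.

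To compare levels between genes, normalised read counts were divided by exon length in kilobases. This length joined the exons of all protein-coding transcripts of a gene, 4017 bases for Hadha and 1557 for Echs1. Other choices of length, which could change the order of the genes, were not tried. Among lox/lox duodena Hadh was highest, with 425 ± 14.2 per kilobase (SD, n = 3), followed by Acaa2 with 178 ± 21.0 per kilobase (SD, n = 3). Acadvl with 126 ± 2.11 per kilobase and Hadhb with 125 ± 8.21 per kilobase (SD, n = 3 each) could not be told apart. Hadha had 90.5 ± 6.40 per kilobase (SD, n = 3). Acadm with 77.6 ± 3.02, Acadl with 76.5 ± 15.9 and Echs1 with 73.4 ± 8.45 per kilobase (SD, n = 3 each) had overlapping ranges, and Acads was lowest with 36.6 ± 0.885 per kilobase (SD, n = 3). In I-KO duodena Hadh was at 451 ± 29.1, Acaa2 at 153 ± 33.0, Hadhb at 95.8 ± 3.19, Acadvl at 93.8 ± 6.03 and Echs1 at 82.6 ± 6.27 per kilobase (SD, n = 4 each). Echs1 thus stood above Hadha, which had 67.2 ± 3.42 per kilobase (SD, n = 4), whereas in lox/lox it stood below. Acadvl at its 3′ end overlaps Dvl2 and Echs1 at its 5′ end overlaps Paox, both on the opposite strand, and the 3′ end of Hadha overlaps Garem2, which was not analysed here. Reads of such pairs cannot be told apart unless strand was used in counting, which the sources used here do not state. Dvl2 had a mean of 7.67 in lox/lox and 8.26 in I-KO, and Paox of 35.6 and 40.9 normalised read counts.

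Over the 7 libraries, 22 of the 36 pairs of members had a positive correlation of log2 values (median 0.37). The highest value was 0.94 for Acads with Hadhb, and the lowest -0.66 for Hadhb with Echs1. With the group means removed the median was 0.17. The genes outside the spiral whose values followed the mean of the 9 members most closely were Coq4, Ccnh, Pex26, Cdk8 and Gpr64, with correlations between 0.95 and 0.96 over 7 libraries. Coq4 serves the synthesis of coenzyme Q and Pex26 the import of peroxisomal proteins, Ccnh and Cdk8 encode a cyclin and a kinase of the transcription machinery, and Gpr64 encodes an adhesion receptor. They were chosen for this likeness, which includes the genotype difference of the members. Gpr64 had low values, between 0.38 and 1.93 normalised read counts in a library.

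Related lists of genes were set beside the spiral. In the carnitine shuttle, which brings long chains into mitochondria, 4 of 6 tested genes were lower in I-KO at an unadjusted p of 0.05 by limma (2.42% of all genes) and 0 were higher (2.32% of all genes). Slc25a20, the carnitine-acylcarnitine carrier, had 113 ± 14.4 (SD, n = 3) normalised read counts in lox/lox and 63.3 ± 7.81 (SD, n = 4) in I-KO. Its log2 fold change was -0.83 (adjusted p = 0.116 from limma). Cpt1a and Cpt2, the carnitine palmitoyltransferases of the outer and inner membrane, had log2 fold changes of -0.72 (adjusted p = 0.134 from limma) and -0.42 (adjusted p = 0.476 from limma). For Slc22a5, the carnitine importer of the plasma membrane, it was -0.35 (adjusted p = 0.822 from limma). The median of this list, -0.38, was further below 0 than the -0.23 of the spiral, and the difference of the lists was not tested. Cpt1b was below the filter on low values.

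Among auxiliary enzymes and electron transfer genes, 3 of 11 were lower at an unadjusted p of 0.05 by limma and 0 higher (2.42% and 2.32% of all genes), with a median log2 fold change of -0.11 (-0.020 without I-KO replicate 1). Eci2, an enoyl-CoA isomerase for unsaturated chains, was at 50.1 ± 2.16 (SD, n = 3) and 35.7 ± 1.42 (SD, n = 4) normalised read counts, which is -0.48 on the log2 scale (adjusted p = 0.179 from limma). Etfb and Etfdh, which pass electrons from the acyl-CoA dehydrogenases to the respiratory chain, had log2 fold changes of -0.25 and -0.24 (adjusted p = 0.954 from limma for each). The 4 acyl-CoA dehydrogenases of amino acid breakdown, Acadsb, Acad8, Ivd and Gcdh, belong to the same protein family as Acadvl. None was lower, and their log2 fold changes were between 0.065 and 0.17. In 1 of them, Acad8, every I-KO library was above every lox/lox library, against 2.91% of all genes. In 0 of them every I-KO library was below, against 3.28% of all genes. An unadjusted p of 0.05 by limma was passed by 0 of the 4 and by 4.74% of all genes.

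**Figure D4:**
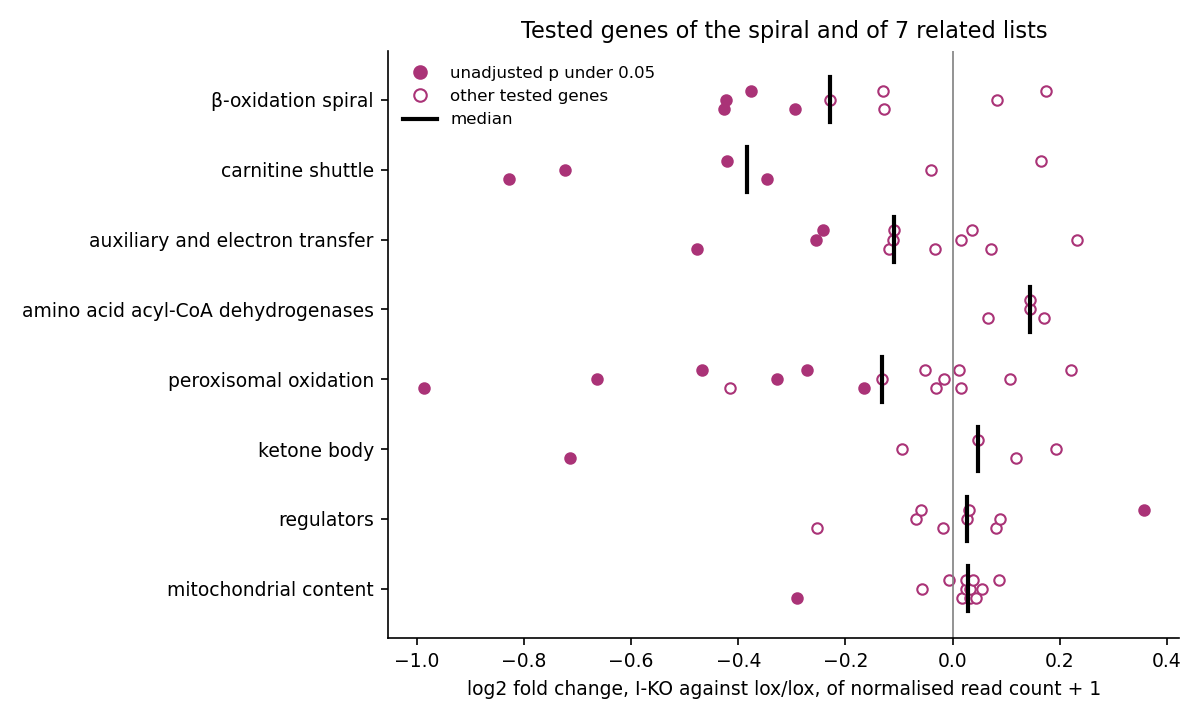
Log2 fold change of the normalised read count + 1 between I-KO and lox/lox (horizontal axis) for each tested gene of the spiral and of 7 related lists, with a black line at the median of a list. Filled points have an unadjusted p under 0.05 from limma. The medians of the spiral (-0.23) and the carnitine shuttle (-0.38) lie below 0, and that of the mitochondrial content genes (0.028) near it.

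In the peroxisome, which shortens very long chains, 6 of 15 tested genes were lower at an unadjusted p of 0.05 by limma and 0 higher (2.42% and 2.32% of all genes), with a median log2 fold change of -0.13. By log2 fold change they were the thiolase Acaa1b (-0.99), the division factor Pex11a (-0.66), the carnitine octanoyltransferase Crot (-0.47), the transporter Abcd3 (-0.33), the reductase Decr2 (-0.27) and the isomerase Ech1 (-0.17). The 5 ketone body genes had a median of 0.048. Of 9 regulators 5 had a higher and 4 a lower level (median 0.027), and 49.4% of all genes tested had a lower level. At an unadjusted p of 0.05 by limma 1 regulator was higher, Pparg (0.36, adjusted p = 0.954 from limma), and 0 were lower (2.32% and 2.42% of all genes). Mitochondrial content genes, such as citrate synthase Cs, had a median of 0.028. Of these 12 genes, 1 was lower at an unadjusted p of 0.05 by limma, the chaperone Hspd1 (-0.29, adjusted p = 0.954 from limma), and 0 were higher (2.42% and 2.32% of all genes). None of the 7 lists held a gene past an adjusted p of 0.05 by limma.

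Whole duodenum was also examined for its mixture of cells, since fewer epithelial cells and less RNA per cell cannot be told apart in such samples. The 10 enterocyte markers, all in the table, summed to between 48141 and 57217 normalised read counts in lox/lox and between 48502 and 63568 in I-KO libraries. Apoa4 alone made up a mean of 23815 of the mean sum of 53899 in lox/lox. Of the 10 markers 1 was lower at an unadjusted p of 0.05 by limma and 0 were higher (2.42% and 2.32% of all genes). The lower one was Fabp1 (log2 fold change -0.57, adjusted p = 0.822 from limma), which encodes a fatty acid binding protein. The 8 smooth muscle markers summed to between 1694 and 1979 in lox/lox and between 1712 and 2239 in I-KO libraries. Sums of 7 markers of proliferating progenitors were between 479 and 547 in lox/lox and between 369 and 554 in I-KO. For 6 B and plasma cell markers they were 3082 to 4395 and 2520 to 4196, and for 6 T and intraepithelial lymphocyte markers 180.0 to 186 and 137 to 255. All 7 progenitor markers had a log2 fold change below 0, as did 49.4% of all genes tested. That of Ccnb1 was only -0.00050, and its mean was 17.3 in lox/lox and 17.7 in I-KO. Of the smooth muscle markers 7 were higher and 1 was lower, and of the enterocyte markers 7 were higher and 3 lower. The 5 of 6 adipocyte markers in the table summed to between 19.0 and 34.6 in lox/lox and between 19.6 and 28.6 in I-KO, and 2 of 4 Brunner gland and stomach markers to at most 1.67 and 3.27. No marker matched in the table was at 0 in all libraries, and no list other than that of enterocytes held a marker at an unadjusted p of 0.05 by limma. The 10 pancreatic acinar markers summed to 355 in I-KO replicate 1 and 65.1 in lox/lox replicate 2, against 6.88 to 10.6 in the others. Without both libraries the same 4 members, Acadvl, Acads, Hadha and Hadhb, were lower at an unadjusted p of 0.05 by limma, when 1.6% of all genes were.

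The genotype comparison of the spiral rests on 3 and 4 mice. Over the members, the 95% confidence interval extended by a median of 0.19 on the log2 scale to each side. Even the members at -0.42 and -0.43 did not pass an adjusted p of 0.05 by limma at this number of mice. Acadvl, Acads, Hadha and Hadhb kept an unadjusted p below 0.05 from limma with every library left out in turn.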

How the data were processed

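Total RNA of duodenum was isolated with TRIzol, and stranded mRNA libraries were read as 100 base single fragments, per the labels. The submitters' processing notes name FastQC 0.11.2, TopHat2 2.0.13, Picard 1.80, HTSeq 0.6.1 and edgeR, with mm10. The authors deposited 1 table of signal values, read counts scaled to an adjusted library size so that a library sums to between 969589 and 1098618, with 2 decimals. A line without a gene name was dropped. Low values lie on multiples of the value of 1 read, from which depths were taken. All of them were within rounding of such a multiple. Because the table has 2 decimals, fewer than 95% were within 0.1 of a step in 5 libraries, the tolerance required here for a count test, and none was run.

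Genes with a value above 1 in at least 3 libraries were fitted on log2(value + 1), which understates the change of low genes, using limma 3.58.1 (R 4.3.3) and a model of genotype alone. Single values were compared by an exact two-sided permutation test over 35 splits. The fit was tested on simulated data. Replicates differed by more than counting noise, with a chi-square of 13.9 or more per degree of freedom. The labels call them biological replicates and the study gives their number as mice.

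Coordinates and exon lengths come from GENCODE M21 (GRCm38, also called mm10), and promoter windows from RefSeq. The window of Acaa2 was left out, so promoter counts cover 8 of the 9 members. The members and lists were chosen with earlier results of these data known. Named genes are the 9 members, Ppara, list genes at an unadjusted p of 0.05 or else the largest change of a list, and the 5 genes most like the members' mean. Some list genes are not reported here. Alternatives were other scalings, no filter, a pseudocount of 0.5, an intensity trend, sample quality weights, a block on replicate number and leaving out each library. Leaving out 2 libraries with acinar reads was added after the data were seen. Figures were made with matplotlib 3.10.9 in Python 3.11.15.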

Additional observations from a re-analysis of the deposited data

Results flagged for a closer look

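Of 34 quantities searched in the 4 I-KO libraries for a library far from the others, 2 stood out, where 1.7 would be expected by chance, and the 3 lox/lox libraries were not searched. The ratio of Acadvl to Acadl was 1.78 in I-KO replicate 1 and between 1.42 and 1.48 in the other I-KO libraries, so that the gap made up 0.842 of the I-KO range. The summed pancreatic acinar markers were at 355 normalised read counts in I-KO replicate 1 and between 8.31 and 10.6 in the others, with a gap of 0.993 of that range. The cause of either was not tested.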

How the results depend on the processing

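The fold changes of Acadvl, Acads, Hadha and Hadhb kept their sign and an unadjusted p below 0.05 from limma under all 15 alternatives, and their adjusted p was at least 0.116 throughout. The members lower at that p were 4 in every setting except without I-KO replicate 2, where Acaa2 made 5. With 1 library left out at a time, the median log2 fold change of the members was between -0.30 and -0.13, that of the auxiliary list between -0.12 and -0.020, and the count of genes at an adjusted p of 0.05 by limma, 4 with all libraries, between 3 and 5. With sample quality weights the members' median was -0.11 and the count was 12. With column totals, which moved the median of all genes to -0.032, the ketone body median was 0.011 in place of 0.048. Without lox/lox replicate 2 and I-KO replicate 1 together, the auxiliary median was -0.024 in place of -0.11. Acadl, between -0.24 and 0.034 with 1 library left out, changed sign without lox/lox replicate 1. At an unadjusted p of 0.05 by limma, 635 genes were called. The causes of these shifts were not tested.

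The replicate numbers are shared between the genotypes, but same-numbered libraries did not deviate together (correlations of -0.014, 0.18 and -0.0092), and lox/lox replicate 1 was closer to I-KO replicate 2 (0.20). With the replicate block, which leaves I-KO replicate 4 without a partner and so gives it no weight, 4 members were lower at an unadjusted p of 0.05 by limma (4.35% of all genes), their median was -0.22, and 3 genes passed an adjusted p of 0.05. The planned tests with edgeR and DESeq2 were not run, because rounding to 2 decimals left low values of 5 libraries outside the tolerance required for whole reads.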
